A study of Homo sapiens with 6 samples.

Results

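The 10 genes described here are read-outs and parts of the Hippo pathway together with secreted matricellular proteins. They were taken by symbol from the deposited table, and all 10 of CTGF, CYR61, ANKRD1, THBS1, AMOTL2, AXL, LATS2, AJUBA, YAP1 and WWTR1 were found among its 19475 symbols. The cells were MH7A, an immortalized synovial fibroblast line from rheumatoid arthritis that carries a viral large T antigen, so a single line stands for the joint lining. All 6 libraries came from MH7A cells given TNFα at 10 ng/ml. In 3 of them (replicates 2, 8 and 14) TNFα was the whole treatment, and in the other 3 (replicates 4, 6 and 10) the cells also had 3 exposures of 15 min to red light (LED, 630 nm). The comparison asks what differed with LED light in TNFα-treated cells. Since TNFα was common to every library, no value here speaks to the response to the cytokine. The labels name no sham-exposed or heat-matched group, so light, handling and any warming by the lamp cannot be told apart.

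In the Hippo pathway, kinases of the MST family activate LATS kinases, which phosphorylate the co-activators YAP (gene YAP1) and TAZ (gene WWTR1) and keep them out of the nucleus. When the kinases are inactive, for example in spread or stretched fibroblasts, YAP and TAZ enter the nucleus and bind TEAD transcription factors at the DNA motif GGAATG. CTGF, CYR61 and ANKRD1 are the target genes most often used as a read-out, and several targets (AMOTL2, LATS2, AJUBA) encode regulators that act back on the pathway. Some of these genes also answer to other regulators, such as TGF-beta and serum response factor.

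The transcripts did not share a single direction. CTGF and THBS1, which encode secreted matricellular proteins, fell about 3-fold with LED light, while ANKRD1, a target in the same textbook set, rose 2.62-fold. The ANKRD1 call was weak and held in only 1 of the omissions of a single library. Without LED replicate 6 its log2 fold change was 0.93 (edgeR, adjusted p = 0.104). Transcripts of YAP1 and WWTR1 themselves lay in overlapping ranges. Of the 10 genes 1 rose, 2 fell and 7 did not pass the test, where an adjusted p below 0.05 counts as passing. Over all 13794 genes tested, 2.44% rose and 2.73% fell, or 5.17% in either direction, and 22.7% had an unadjusted p below 0.05. The median log2 fold change of the 10 genes was -0.23, against 0.01 over all genes tested. The 2 groups had separate ranges for 7 of the 10 genes, which held for 32.4% of all genes tested.

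The sequences that bear on a shared response are the promoter stretches with a TEAD motif, shown because genes that fell and a gene that rose carry the same motif. RefSeq promoter windows on GRCh38.p14 were matched for 9 of the 10 genes, and CYR61 was not matched. The motif GGAATG was searched on both strands (its reverse complement reads CATTCC) in the 250 bases before each start. It was present for 7 of the 9 genes in at least 1 window, and 14.3% of the 27305 genes with windows held it. A match is a description of letters, not evidence of binding. The genes were chosen largely as known YAP and TEAD targets, so their higher share is not a test of a shared response. The CTGF stretch (chr6:131951393-131951572, minus strand, 200 to 21 bases before the start) and the THBS1 stretch (chr15:39580879-39581058, plus strand, the same span) are printed 5′ to 3′ with the motif in capitals.
CTGF promoter: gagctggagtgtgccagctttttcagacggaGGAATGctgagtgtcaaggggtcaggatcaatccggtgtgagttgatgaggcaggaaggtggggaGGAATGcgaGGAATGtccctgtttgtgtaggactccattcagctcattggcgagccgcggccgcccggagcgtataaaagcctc
THBS1 promoter: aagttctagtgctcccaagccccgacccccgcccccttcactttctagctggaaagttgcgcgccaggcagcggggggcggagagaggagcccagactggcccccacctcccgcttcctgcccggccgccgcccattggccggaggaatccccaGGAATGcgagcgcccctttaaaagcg
CTGF held 3 matches, beginning 169, 104 and 95 bases before the start, and 29 of 35116 windows (0.0826%) held at least 3. THBS1 held 1 match, beginning 46 bases before the start.

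The matches of the other genes are shown with 12 bases on either side, with the motif or its reverse complement in capitals. The ANKRD1 sites lie at chr10:90921290-90921319 and chr10:90921198-90921227 (minus strand), the AMOTL2 site at chr3:134374499-134374528 (minus), the AXL site at chr19:41226531-41226560 (plus), the AJUBA site at chr14:22976884-22976913 (minus) and the YAP1 site at chr11:102110273-102110302 (plus).
ANKRD1 distal site: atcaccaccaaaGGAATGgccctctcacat
ANKRD1 proximal site: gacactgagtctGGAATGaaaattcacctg
AMOTL2 site: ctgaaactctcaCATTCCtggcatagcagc
AXL site: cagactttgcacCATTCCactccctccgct
AJUBA site: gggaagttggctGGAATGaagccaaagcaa
YAP1 site: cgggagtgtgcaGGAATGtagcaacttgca
ANKRD1, the gene that rose, held 2 matches, and 0.94% of all windows held at least 2. In GENCODE 29 the ANKRD1 gene begins farther upstream, at chr10:90921276, so the proximal site lies inside that gene model. AMOTL2, AXL and AJUBA each have 2 annotated starts in the table, and the match lay before the downstream start. LATS2 and WWTR1 held no match in these windows, which says only that these letters are absent there.

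**Figure D1:**
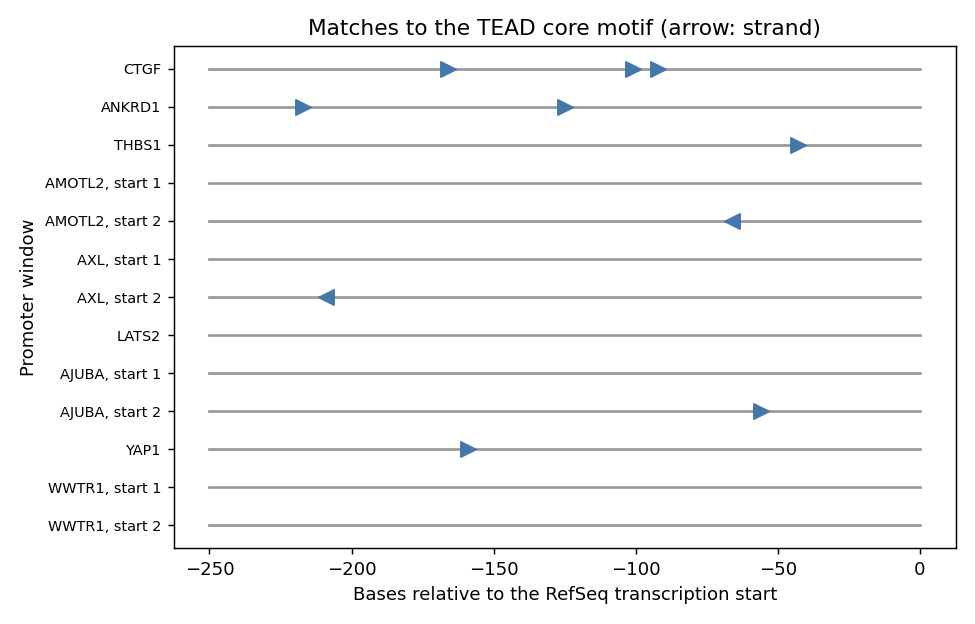
Positions of matches to the TEAD core motif (arrows, pointing right for the gene's strand and left for the other strand) in the 250 bases before each annotated start, in bases relative to the start. CTGF has 3 matches, ANKRD1 has 2, and THBS1, YAP1 and 1 of the 2 windows of AMOTL2, AXL and AJUBA have 1 each.

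Deposited totals were 86000253 to 108074289 estimated counts per library. TNF replicate 8 and LED replicate 6 stood farthest from the other libraries of their groups, with a median absolute deviation from the group mean of 0.22 and 0.16 on the log2 scale, against 0.09 to 0.15 in the others. Values with both left out, an alternative chosen after seeing the data, are given below for the 10 genes and for the genes named from related lists except TEAD1 and most cell type markers. Genes named only for a call under it were chosen after their values were seen. Under that alternative 12% of all genes tested were called, against 11% with DESeq2 and 4.78% with limma-voom on all 6 libraries. Leaving out the library farthest from its group lowers the spread within groups, which by itself favours lower adjusted p-values. A call under that alternative is therefore a description and not added support. Of 10 fibroblast markers, all were detected, and COL1A1 alone had 13123 ± 1256 CPM (the standard count scaled to a common library total; SD, n = 3) with TNF. The summed fibroblast markers took 29421 to 31597 CPM with TNF and 24967 to 26342 with LED, and no single marker passed the test in edgeR (1 of 10 at an unadjusted p below 0.05, 0 with DESeq2 and 0 with limma-voom). COL1A1 and COL1A2 made up most of the difference between the sums (log2 fold changes of -0.42 and -0.26), while the markers FAP (0.56), LUM (0.37), COL3A1 (0.29) and PDPN (0.06) had values above 0, and the median of the 10 markers was -0.09. With both libraries that stood apart left out, 1 fibroblast marker was called lower, DCN (log2 fold change -0.53, adjusted p = 0.0387). The macrophage markers AIF1 and TYROBP and the endothelial marker CDH5 were at 0 in every library, while the summed macrophage list had 93.4 to 139 CPM with TNF and 115 to 155 with LED, nearly all of it CD68. The summed endothelial list had 81.6 to 118 CPM with TNF and 67.3 to 83.6 with LED, most of it TEK, whose log2 fold change was -0.63 (adjusted p = 0.106, and 0.0289 with both libraries left out). The other endothelial markers tested had values above 0, KDR with 0.39 and VWF with 1.35 at 0.638 CPM with TNF and 1.64 CPM with LED (unadjusted p = 0.0180, adjusted p = 0.130), and the list's median was 0.39. The summed epithelial list had 34.4 to 41.2 CPM with TNF and 37.2 to 55.9 CPM with LED. The part of cell composition in the results below was not tested, and in bulk samples fewer cells of a type and less RNA per cell cannot be told apart.

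CTGF, also named CCN2, encodes a secreted matricellular protein that promotes matrix production and is the most used YAP read-out. TNF replicates 2, 8 and 14 held 649, 766 and 739 CPM of it and LED replicates 4, 6 and 10 held 247, 183 and 260 CPM. Every LED library lay below every TNF library, and the lowest TNF value was over 2 times the highest LED value. Mean levels were 718 ± 60.8 and 230 ± 41.0 CPM (SD, n = 3 each), a log2 fold change of -1.64 ± 0.19 (SE) and a fall of 3.12-fold (edgeR quasi-likelihood test, adjusted p = 0.00461). CTGF stayed past the threshold in each of 15 alternatives, including every omission of a single library (adjusted p up to 0.0262) and the omission of both libraries that stood apart (log2 fold change -1.45, adjusted p = 0.00192). In GENCODE 29 the gene spans chr6:131948176-131951373 on the minus strand of GRCh38, and 195 exonic bases are shared with an annotated antisense gene, so reads there cannot be assigned without strand.

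THBS1 encodes thrombospondin-1, a secreted matricellular glycoprotein that activates latent TGF-beta and restrains vessel growth. Its level was 747, 1392 and 1051 CPM for TNF replicates 2, 8 and 14 and 376, 268 and 369 CPM for LED replicates 4, 6 and 10. The groups did not overlap, although the TNF libraries spread widely, with replicate 8 the highest. The means were 1063 ± 323 and 337 ± 60.6 CPM (SD, n = 3 each), a log2 fold change of -1.66 ± 0.26 and a fall of 3.15-fold (adjusted p = 0.0126). The call was lost without LED replicate 6 (adjusted p = 0.0732) and held in the other 14 alternatives, among them the omission of both libraries that stood apart (log2 fold change -1.27, adjusted p = 0.0106). THBS1 shares 448 exonic bases with FSIP1, a gene on the opposite strand that had 0.383 CPM with TNF and 1.30 CPM with LED.

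CYR61, also named CCN1, is the closest relative of CTGF among the 10 genes and encodes a secreted integrin ligand. It had 443, 629 and 485 CPM across TNF replicates 2, 8 and 14 and 352, 197 and 397 CPM across LED replicates 4, 6 and 10. The groups did not overlap, but TNF replicate 2 and LED replicate 10 lay close together, and LED replicate 6 was far below the other LED libraries. The log2 fold change was -0.72 ± 0.27, with a 95% interval of -1.32 to -0.12, and did not pass (adjusted p = 0.149). With both libraries that stood apart left out it was -0.31, and its adjusted p lay between 0.0650 and 0.292 over the alternatives.

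ANKRD1 encodes a nuclear and sarcomeric ankyrin-repeat protein that is induced by mechanical strain and is a direct YAP target. It had 25.2, 28.5 and 21.5 CPM across TNF replicates 2, 8 and 14 and 41.6, 101 and 54.0 CPM across LED replicates 4, 6 and 10. All LED libraries were above all TNF libraries, with LED replicate 6 the highest. The means were 25.1 ± 3.52 and 65.6 ± 31.4 CPM (SD, n = 3 each), a log2 fold change of 1.39 ± 0.31 and a rise of 2.62-fold (adjusted p = 0.0384). This call was the weakest of the 3. It was lost in 5 of 6 omissions of a single library: without TNF replicate 2 (adjusted p = 0.0617), 8 (0.0711) or 14 (0.126) and without LED replicate 6 (0.104) or 10 (0.0622). Its log2 fold change stayed positive in all 15 alternatives, from 0.93 to 1.64, and it was called with both libraries that stood apart left out (1.04, adjusted p = 0.0124).

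**Figure D2:**
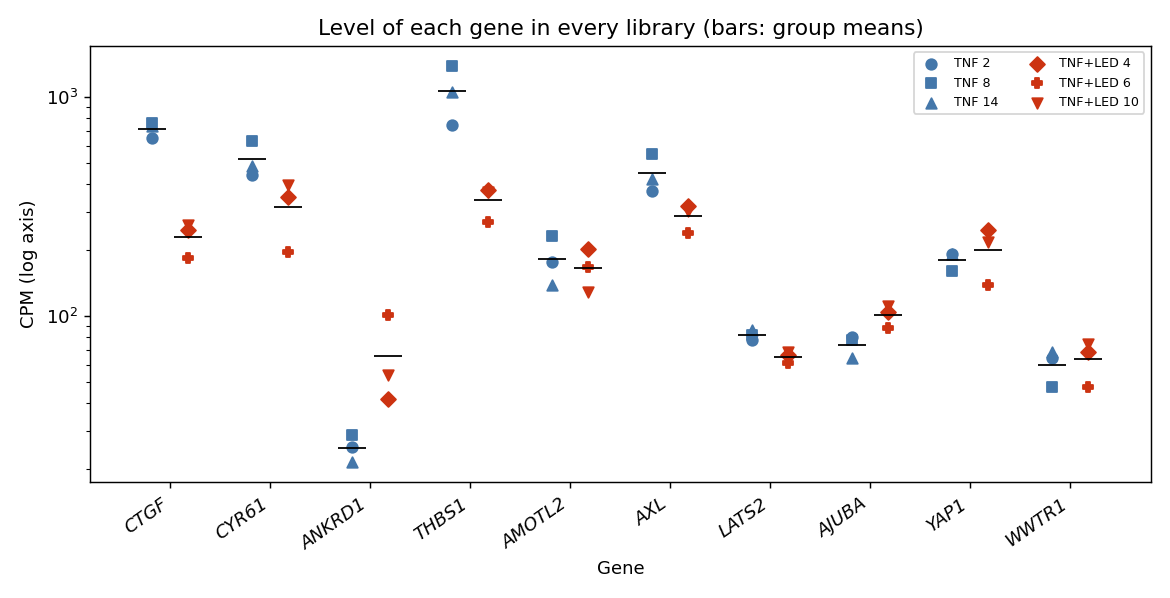
Level of each gene in every library as CPM on a log axis, with TNF libraries in blue, TNF plus LED libraries in red, a marker shape for each library and black bars at the group means. CTGF and THBS1 separate downward with LED and ANKRD1 upward (means of 25.1 and 65.6 CPM), while AMOTL2, YAP1 and WWTR1 overlap.

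The order of levels changed within the set. Divided by exon length (CPM per kb of merged exons), CTGF was the highest of the 10 genes with TNF, at 307, followed by CYR61 at 211, THBS1 at 116 and AXL at 86.9. With LED, CYR61 came first at 128 and CTGF second at 98.3, followed by AXL at 55.4, THBS1 at 36.8 and ANKRD1 at 33.1. The place of ANKRD1 ahead of YAP1 rested on LED replicate 6, where ANKRD1 had 51.1 and was above YAP1. In LED replicates 4 and 10 YAP1 (39.1 and 34.6) was above ANKRD1. With TNF, CTGF was above CYR61 in every library, by 316 to 198 CPM per kb in replicate 14. With LED, CYR61 was above CTGF in every library, by 143 to 105 in replicate 4, 80.1 to 78.4 in replicate 6 and 162 to 111 in replicate 10, and in replicate 6 the gap was small. THBS1 was above AXL in every TNF library, although their ranges overlapped (81.5 to 152 and 72.0 to 107 CPM per kb). With LED, AXL (46.4 to 61.5) was above THBS1 (29.2 to 41.1) in every library. In the middle, AMOTL2 and YAP1 were near each other in both groups (30.5 and 28.8 CPM per kb with TNF, 27.8 and 31.9 with LED). LATS2, ANKRD1 and AJUBA were close to one another with TNF (14.7, 12.7 and 12.4), and WWTR1 was the lowest in both groups (7.14 and 7.55).

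AXL, a receptor tyrosine kinase for GAS6 that YAP activates in several cell types, had 371, 551 and 423 CPM across TNF replicates 2, 8 and 14 and 317, 239 and 301 CPM across LED replicates 4, 6 and 10. The groups did not overlap, and the log2 fold change was -0.65 ± 0.20, with a 95% interval of -1.11 to -0.19 (adjusted p = 0.0990). It did not pass in edgeR, passed with DESeq2 (adjusted p = 0.0385), and had an adjusted p of up to 0.253 over the alternatives. With both libraries that stood apart left out the log2 fold change was -0.36 (adjusted p = 0.0667). AXL shares 67 exonic bases with an annotated antisense gene.

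None of the 3 targets that feed back on the pathway passed the test. LATS2, a kinase that phosphorylates YAP and TAZ, had 77.7, 81.7 and 86.4 CPM across TNF replicates 2, 8 and 14 and 66.2, 61.1 and 68.4 CPM across LED replicates 4, 6 and 10. Its groups were tight and did not overlap, but the log2 fold change was small at -0.33 ± 0.16 (95% interval -0.68 to 0.02, adjusted p = 0.249), and -0.28 (0.0955) with both libraries that stood apart left out. AJUBA, a LIM-domain scaffold that binds and inhibits LATS kinases, had 79.8, 77.7 and 64.2 CPM in the TNF replicates and 104, 88.4 and 112 CPM in the LED replicates, in the same order. Its groups did not overlap either, and its log2 fold change was 0.46 ± 0.17 (95% interval 0.06 to 0.85, adjusted p = 0.161). It passed in 1 of 15 alternatives, the omission of both libraries that stood apart (log2 fold change 0.59, adjusted p = 0.0278). AMOTL2, an angiomotin that holds YAP at junctions and actin, had 176, 233 and 139 CPM with TNF and 202, 168 and 129 CPM with LED, with overlapping groups. Its log2 fold change was -0.14 ± 0.24 (95% interval -0.67 to 0.40, adjusted p = 0.779), and its sign turned without TNF replicate 8 (0.08), without LED replicate 10 (0.02) or with both libraries that stood apart left out (0.07).

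Transcripts of the co-activators did not pass the test. YAP1 had 191, 161 and 191 CPM across TNF replicates 2, 8 and 14 and 246, 139 and 218 CPM across LED replicates 4, 6 and 10, and LED values lay both above and below all TNF values. The log2 fold change was 0.15 ± 0.22 (95% interval -0.36 to 0.65, adjusted p = 0.740). WWTR1, which encodes TAZ, had 64.0, 47.4 and 68.7 CPM with TNF and 68.2, 47.6 and 74.6 CPM with LED. Its log2 fold change was 0.08 ± 0.22 (95% interval -0.42 to 0.58, adjusted p = 0.868). These intervals leave room for a lower or a higher level, from -0.36 to 0.65 (YAP1) and from -0.42 to 0.58 (WWTR1) on the log2 scale. RNA levels do not show the phosphorylation or location of the proteins. YAP1 shares 628 and WWTR1 795 exonic bases with annotated antisense genes. For both genes the lowest values were in TNF replicate 8 and LED replicate 6, the libraries that stood apart. With both left out the log2 fold changes were 0.28 for YAP1 (adjusted p = 0.103) and 0.11 for WWTR1 (0.492).

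**Figure D3:**
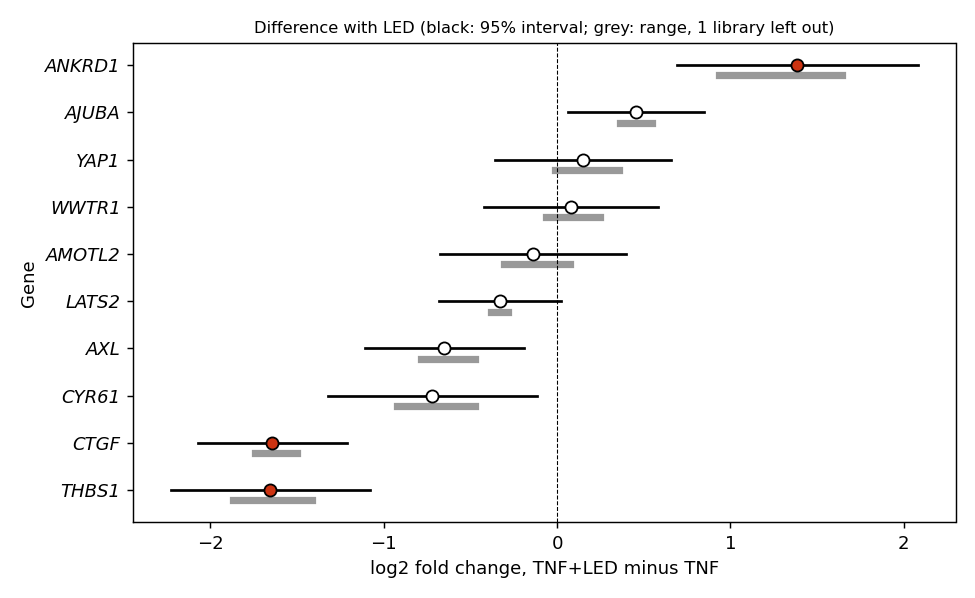
Log2 fold change of each gene, TNF plus LED minus TNF (points; filled red where the adjusted p was below 0.05), with its 95% interval (black) and the range when a single library was left out (grey). THBS1, CTGF and ANKRD1 lie farthest from 0, at -1.66, -1.64 and 1.39.

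Across the libraries the genes did not follow a single order. CTGF, CYR61, THBS1, AMOTL2 and AXL were all highest in TNF replicate 8, where YAP1 and WWTR1 were 0.22 and 0.35 below their 6-library means on the log2(CPM + 1) scale. LED replicate 6 was lowest for 6 genes (CTGF, CYR61, THBS1, AXL, LATS2 and YAP1) and highest for ANKRD1. In that library CTGF deviated from its 6-library mean by -1.13, THBS1 by -1.13 and ANKRD1 by 1.35. The other LED libraries had smaller deviations for ANKRD1 (0.09 and 0.46 in replicates 4 and 10).

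**Figure D4:**
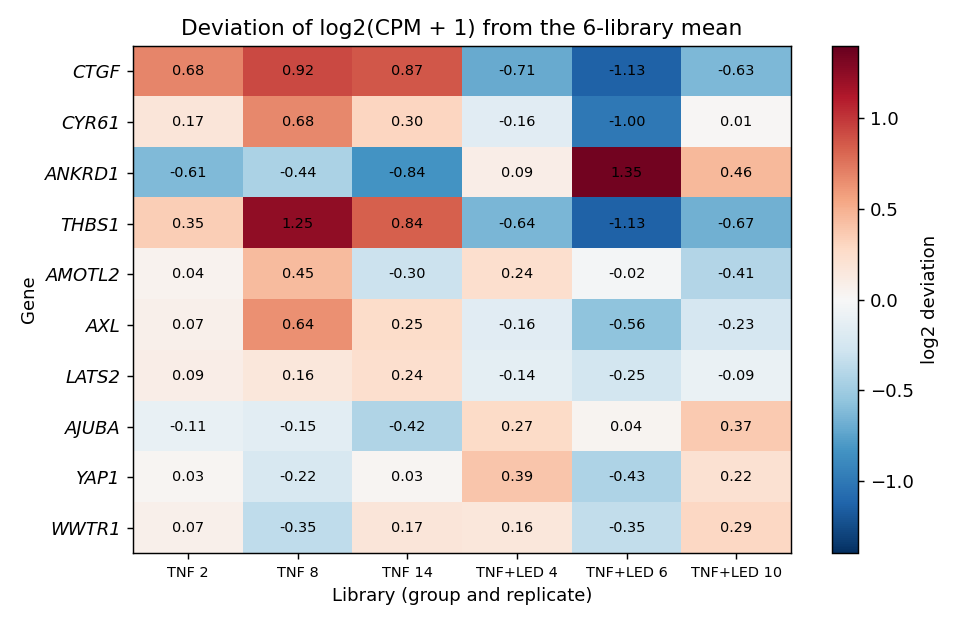
Deviation of log2(CPM + 1) from each gene's 6-library mean, with genes in rows, libraries in columns, red above and blue below the mean. CTGF and THBS1 are above their mean in all TNF libraries and below it in all LED libraries, ANKRD1 is the reverse, and LED replicate 6 holds -1.13, -1.13 and 1.35 for these genes.

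No transcript of the upstream Hippo cascade passed the test. Of 24 kinases, adaptors and upstream regulators of YAP and TAZ, all were tested and 0 passed in edgeR, against 0 higher and 1 lower with DESeq2 and 0 with limma-voom. At an unadjusted p below 0.05 there were 3 higher and 3 lower, a share near the 22.7% of all genes. Their median log2 fold change was 0.05. With both libraries that stood apart left out, 4 were called higher (MOB1B, TAOK3, AMOTL1 and LIMD1, at log2 fold changes of 0.34 to 0.72) and 1 lower (RASSF1, -0.54, adjusted p = 0.0299). RASSF1, a scaffold that activates MST kinases, had 42.5, 61.2 and 42.9 CPM across TNF replicates 2, 8 and 14 and 26.6, 28 and 31.7 CPM across LED replicates 4, 6 and 10 (log2 fold change -0.76 ± 0.20, adjusted p = 0.0569). Its groups did not overlap. DCHS1, a large cadherin that is the ligand of FAT4, had a log2 fold change of -0.68 ± 0.23 (adjusted p = 0.117), and -0.51 (0.160) with both libraries left out.

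Among the nuclear partners, 6 of 8 TEAD and VGLL genes were tested, of which 1 rose and 5 did not pass (median -0.03). Over all genes tested 5.17% passed. Of the 6, 1 was higher and 0 were lower at an unadjusted p below 0.05 (edgeR), against 22.7% of all genes. VGLL1 and VGLL2 were at 0 in every library. VGLL3, a cofactor that binds TEAD in competition with YAP, had 95, 47.6 and 83.4 CPM across TNF replicates 2, 8 and 14 and 148, 168 and 183 CPM across LED replicates 4, 6 and 10. It rose 2.21-fold (log2 1.14 ± 0.25, adjusted p = 0.0371), but lost the call in 5 of 15 alternatives, including the omission of TNF replicate 14 or of any 1 LED library (adjusted p up to 0.142). It was called with both libraries that stood apart left out (0.89, adjusted p = 0.0109). TEAD1, a DNA-binding partner of YAP and TAZ that was chosen after its values were seen, had 225, 114 and 203 CPM with TNF and 231, 128 and 234 CPM with LED (log2 0.13 ± 0.30, adjusted p = 0.844). Its lowest values were again in TNF replicate 8 and LED replicate 6.

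Other known YAP and TAZ targets also included genes of either direction. Of 16 further genes of a published target signature, 2 fell, 1 rose and 13 did not pass, with a median of -0.16. Over all genes tested 5.17% passed. Of the 16, 1 was higher and 4 were lower at an unadjusted p below 0.05 (edgeR), against 22.7% of all genes. F3, which encodes tissue factor, the starter of blood coagulation, had 862, 716 and 1017 CPM across TNF replicates 2, 8 and 14 and 292, 188 and 351 CPM across LED replicates 4, 6 and 10. It fell 3.12-fold (log2 -1.64 ± 0.25, adjusted p = 0.0126) and lost the call without TNF replicate 14 (0.0527) or LED replicate 4 (0.0541). FJX1, a secreted kinase-related protein of the FAT and Dachsous pathway, fell 2.12-fold (log2 -1.08 ± 0.25, adjusted p = 0.0416). FOXF2, a forkhead transcription factor of mesenchymal cells, had 39.7, 35.6 and 38.0 CPM with TNF and 68.1, 74.8 and 62.0 CPM with LED, and rose by 0.85 ± 0.16 on the log2 scale (adjusted p = 0.0264). FJX1 and FOXF2 lost their calls without TNF replicate 14 or any 1 LED library, and FJX1 also without TNF replicate 8 (adjusted p up to 0.155 and 0.107). DESeq2 called 1 higher and 3 lower. With both libraries that stood apart left out, 2 were called higher and 5 lower. F3 (log2 fold change -1.54), FJX1 (-0.66) and FOXF2 (0.75) were among them, with CRIM1 (-0.61), ARHGEF17 (-0.37), IGFBP3 (1.13) and GADD45A (-0.53) added. GADD45A had a log2 fold change of 0.19 over all 6 libraries (adjusted p = 0.830), so its sign turned, and IGFBP3 had 0.41 (0.661).

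No other matricellular gene passed the test. Of 18 listed genes 12 were tested and 0 passed in edgeR, against 1 higher with DESeq2 and 0 with limma-voom, and the median was 0.27. At an unadjusted p below 0.05 there were 1 higher and 1 lower of 12, against 22.7% of all genes, and with both libraries that stood apart left out 0 were called. SPARC, a collagen-binding glycoprotein, had 4218, 4612 and 2470 CPM across TNF replicates 2, 8 and 14 and 2463, 2721 and 2241 CPM across LED replicates 4, 6 and 10, with overlapping groups (log2 -0.61 ± 0.24, adjusted p = 0.178; -0.51 and 0.299 with both libraries left out). SPP1, which encodes osteopontin, was low, with 1.04 ± 0.658 and 3.26 ± 1.79 CPM (SD, n = 3 each; adjusted p = 0.116), and passed with DESeq2 (0.0176). Its log2 fold change was 1.65 over all libraries and 0.74 with both libraries that stood apart left out (adjusted p = 0.234).

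TGF-beta, which also regulates CTGF and THBS1, has its own direct targets, and of 8 of these 2 rose, none fell and 6 did not pass (median 0.23). Over all genes tested 5.17% passed. Of the 8, 2 were higher and 1 was lower at an unadjusted p below 0.05 (edgeR), against 22.7% of all genes. PMEPA1, a membrane protein that dampens TGF-beta signalling, went from 10.9, 9.23 and 10.7 CPM in TNF replicates 2, 8 and 14 to 26.7, 49.3 and 26.7 CPM across LED replicates 4, 6 and 10. It rose 3.33-fold (log2 1.74 ± 0.26, adjusted p = 0.0122) and lost the call only without TNF replicate 14 (0.0506) among 15 alternatives, with 1.31 (0.00287) when both libraries that stood apart were left out. BHLHE40, a transcriptional repressor of the clock and stress responses, rose 2.23-fold (log2 1.16 ± 0.23, adjusted p = 0.0280), with adjusted p up to 0.116 over the alternatives and no call without TNF replicate 8 or 14 or LED replicate 4 or 6, or with both libraries that stood apart left out (0.0766). With those left out, 1 of the 8 genes was called higher and 1 lower.

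**Figure D5:**
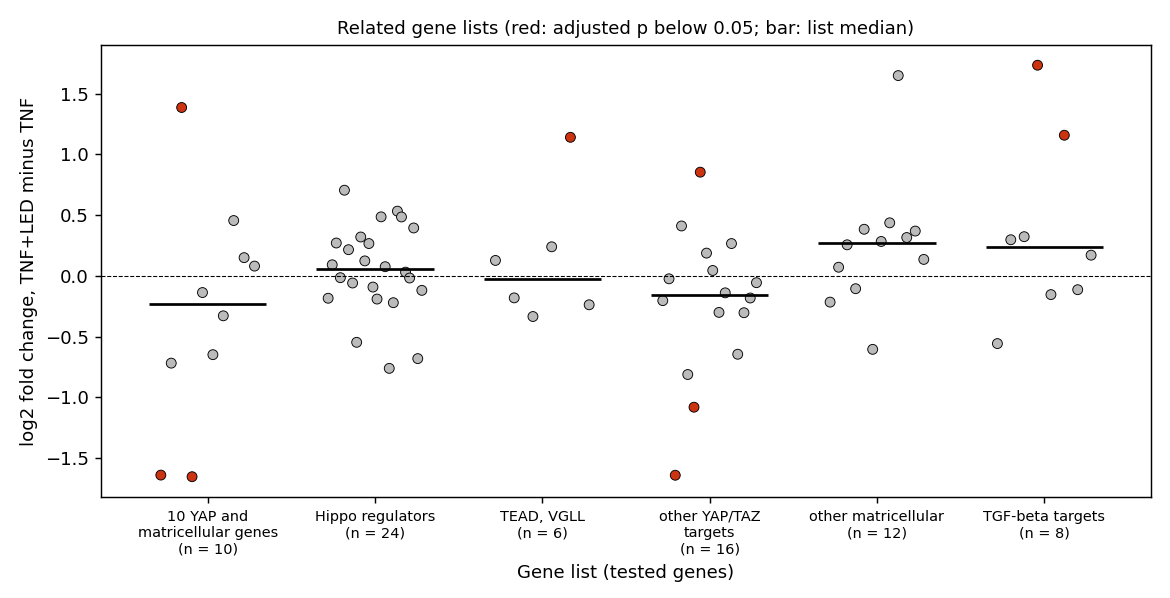
Log2 fold change (TNF plus LED minus TNF) of every tested gene in the set of 10 and in 5 related lists, red where the adjusted p was below 0.05, with a bar at each list's median. Medians lie between -0.23 (the 10 genes) and 0.27 (other matricellular proteins), and called genes lie on both sides of 0 in the set of 10 and among the other YAP and TAZ targets.

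Among 8976 other genes with a mean of at least 10 CPM, those whose 6-library profile lay nearest to that of CTGF included ZNF367, PDCD1LG2, KIRREL3 and KNL1. The measure was the Euclidean distance between mean-centred log2(CPM + 1) values over 6 libraries, at 0.311, 0.439, 0.464 and 0.489. THBS1 was at 0.474, CYR61 at 1.18 and ANKRD1 at 3.80. All of these profiles share the same libraries and the same split by LED light. KNL1 is a kinetochore scaffold, and PDCD1LG2 encodes the immune checkpoint ligand PD-L2. Nearness to CTGF was the rule of choice, so a fall with LED in each of these 4 genes follows from that rule. Their log2 fold changes were -1.58 (ZNF367), -1.42 (PDCD1LG2), -1.82 (KIRREL3) and -1.35 (KNL1).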

How the data were processed

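RNA was measured in 6 libraries of MH7A cells after removal of ribosomal RNA and random priming, per the labels' protocols. Per the submitters' processing notes, HISAT2, StringTie, bcl2fastq 2.0, limma and DESeq2 were used, in roles left unstated. Those notes list the mouse build mm10, although samples and symbols are human. No source here states which human build was used or whether counting used strand. The authors deposited estimated counts per gene symbol, which were whole numbers and were tested as deposited. Of values from 1 to 7, 67.2% were 4 or 5, so a fragment appears to be worth about 4 units, and totals correspond to about 21500063 to 27018572 fragments per library. Amplified fragments are not independent molecules.

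TNF plus LED (n = 3) was compared with TNF (n = 3) in edgeR 4.0.16 (R 4.3.3) by its two-sided quasi-likelihood test, with filterByExpr, TMM scaling, robust dispersions, no covariate and Benjamini-Hochberg adjustment over all 13794 genes tested. The standard error is the log2 fold change over the square root of F. The alternatives were other scalings and filters, DESeq2 1.42.0, limma-voom (limma 3.58.1), counts divided by 4, each library left out, and a threshold of 0.10. In simulated counts for 13794 genes, 47 of 100 genes changed by 1 and 95 of 100 changed by 2 on the log2 scale were called, with 12 false calls. The changed genes were drawn only from those with a mean above 100 estimated counts, so lower genes are not covered. Spread was drawn gene by gene, so no simulated library stood apart from its group. Whether the samples were separate cultures is not in the labels, so p-values reflect only their spread, possibly technical. The 10 genes and the lists were chosen with earlier results of these data known. From each of 5 lists the text names up to 4 called genes with the lowest p, or the 2 with the lowest p where none was called, and the 5 profiles nearest to CTGF, of which 1 result is not reported here. Exon lengths and neighbours came from GENCODE 29, promoters from RefSeq (GRCh38.p14).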

Additional observations from a re-analysis of the deposited data

How the results depend on the processing

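The count of genes in the set that fell was 2 in the reported fit, 1 to 2 with a single library left out, and within 1.5 times of 2 under every other alternative run. The count that rose was 1, 0 to 1 with a single library left out, and 2 with both TNF replicate 8 and LED replicate 6 left out, which was chosen after seeing the data. Over all genes, 713 were called, against 1657 with DESeq2, 1471 at a threshold of 0.10, 80 to 737 with a single library left out and 1669 with both of those libraries left out. The causes were not tested. The sign of AMOTL2 turned in single-library omissions (log2 fold change -0.303 to 0.0761) and with both libraries left out (0.0721), and the signs of YAP1 (-0.0117 to 0.358) and WWTR1 (-0.0651 to 0.250) turned in single-library omissions. Other scalings moved the median of all genes by less than 0.1 on the log2 scale (medians of 0.02, 0.01 and -0.03, against 0.01). No paired analysis was possible because the groups share no replicate number. With 3 libraries a group, the intervals of the genes that did not pass leave changes of the sizes printed beside them possible.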

Other observations

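CTGF and ANKRD1 are both used as read-outs of the same co-activators, and their ratio was read in each library. Per kb of exon, the CTGF level was 21.8, 22.7 and 29.1 times that of ANKRD1 in TNF replicates 2, 8 and 14 and 5.01, 1.53 and 4.07 times in LED replicates 4, 6 and 10. The ranges did not overlap, which follows from the separate ranges of the 2 genes in opposite directions given above and adds nothing to them. LED replicate 6 had the lowest ratio. The ratio was chosen after the values were seen and is given as a description.

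The 10 genes together took 2824, 3967 and 3268 CPM in TNF replicates 2, 8 and 14 and 2019, 1492 and 1982 CPM in LED replicates 4, 6 and 10, most of it from CTGF, CYR61, THBS1 and AXL.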
